A study of Mus musculus with 33 samples.

Results

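The targets of p53 described here were 41 genes of the p53 response, taken as a fixed list of gene symbols from the 37991 gene identifiers counted in each library. Symbols were matched to identifiers through the annotation of the mouse genome NCBIM37, in which Tigar carries the older name 9630033F20Rik, and all 41 were found. Counts came from 33 RNA-seq libraries of E14TG2a, a mouse embryonic stem cell line. The libraries covered mESCs kept in medium with LIF, embryoid bodies (EBs) harvested at day 8, and EBs that received 5 µM retinoic acid (RA) from day 4, a treatment that favours neural fates. The control group was made up of 3 clones that had received the empty CRISPR/Cas9 plasmid pX330 (#1, #4 and #7). The mutant groups were 3 Neil1 clones (#7, #9 and #11), 3 Neil2 clones (#1, #11 and #14) and 1 Apex1 clone (#46) measured in technical duplicates, all with deletions made by CRISPR/Cas9 around the active site. Neil1 and Neil2 are DNA glycosylases that remove oxidised bases, and Apex1 is the endonuclease that cuts DNA at the abasic sites such enzymes leave. Because the Apex1 libraries come from a single clone, p-values for Apex1 rest on the spread of the control clones and on technical spread, and the effect of the mutation and of that clone cannot be told apart.

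p53 is a transcription factor that cells keep at a low level until DNA damage or other stress stops its destruction by Mdm2, a ubiquitin ligase that is itself a p53 target. Once stable, p53 binds response elements near its target genes and switches on branches of genes that pause the cell cycle, start apoptosis, repair DNA or adjust metabolism. In mouse embryonic stem cells much p53 is held in the cytoplasm, the brake at the G1 phase is weak, and p53 is known for favouring differentiation over self-renewal. The members were grouped by role into p53 feedback (2 genes), cell cycle (7), death (12), DNA repair (5), metabolism (6), signalling between cells (4) and other functions (5).

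The sequences that tie such genes to p53 are its response elements, and matches to them near the members are shown for that reason. A p53 response element holds 2 copies of a 10-base unit, in which 3 purines, a core of C, A or T, A or T, and G, and 3 pyrimidines follow each other. The unit reads alike on both strands, so that a search of one strand covers both. Within 5000 bases either side of the gene start, 2 adjacent units with at most 1 mismatch outside the C and G of the cores were found in 9 of 41 members (22%) and in 384 of 22337 protein-coding genes (1.72%). Another search allowed no mismatch but 0 to 13 bases between the units. It matched 5 members (12.2%), which were Cdkn1a, Polk, Traf4, Trp53inp1 and Zmat3, and 682 of all genes (3.05%). A single unit was present near 40 members (97.6%) and 96.4% of all genes. In the shorter window from 250 bases before to 50 after the start in RefSeq, a single unit lay in 13 of the 32 members with a promoter sequence (40.6%) and in 2582 of 27025 genes (9.55%). The members were listed as p53 targets, so a higher share than in all genes follows from the list and is no result of these data. A match describes letters only and does not show that p53 was bound in these cells. The 11 matches of 2 adjacent units are printed 5′ to 3′ on the strand of the gene, with the 4-base cores in capitals.
9630033F20Rik, chr6:127056204-127056223: gggCTTGtttagcCTTGccc
Ccng1, chr11:40568438-40568457: acgCAAGcccgggCTAGtct
Ccng1, chr11:40568964-40568983: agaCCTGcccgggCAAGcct
Cdkn1a, chr17:29227873-29227892: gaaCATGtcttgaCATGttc
Gdf15, chr8:73155865-73155884: tgaCTTGcctgaaCTTGcct
Gtse1, chr15:85690375-85690394: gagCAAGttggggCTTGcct
Rps27l, chr9:66794103-66794122: gggCTTGttgagaCTTGtcc
Slc12a4, chr8:108487865-108487884: aggCATGcctaagCCTGccc
Traf4, chr11:77979903-77979922: gggCAAGccagggCTTGttt
Zmat3, chr3:32263253-32263272: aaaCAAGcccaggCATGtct
Zmat3, chr3:32269073-32269092: gagCAAGtctgggCTTGtta

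The Cdkn1a match was centred 42 bases upstream of the gene start, and that of Traf4 821 bases upstream. Ccng1 held a match 160 bases upstream and another in an intron 366 bases downstream of its start. Both matches of Zmat3 were farther away, at 1338 bases inside an intron and 4482 bases upstream, and the intronic one was the only match without a mismatch. Those of Gdf15 and Gtse1 lay in exons, and those of 9630033F20Rik, Rps27l and Slc12a4 in introns. Of these 9 genes, Traf4 was called in none of the mutant comparisons described below, whereas Gdf15 had the largest rise of any member.

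Expression was read as raw counts per gene, 21523742 to 48350904 per library, and is given as CPM, the counts of a gene among 1000000 counts of a library after TMM scaling over all 33 libraries. Replicate values are in the order of the clone numbers above, and where a clone library is meant it is named by its replicate number. Each of the 41 members passed the filter on low counts in every comparison, and 39 had at least 10 counts in every library, the exceptions being Fas, which fell to 1 count in 1 library, and Gdf15, whose lowest count was 8. Counting noise alone did not account for the difference between any of the 30 pairs of libraries within a group. One mESC library, of Neil1 replicate 3, held no counts for 345 of 511 expressed genes of chromosome X, but no member lies on chromosome X or Y. Counts over the whole targeted genes mix deleted and remaining parts and therefore do not check the deletions. Apex1 had 73.1 to 77.2 CPM in the mESC libraries labelled Apex1 knockout against 7.76 to 17.8 CPM in controls, and it was also higher there in EBs (60.0 to 86.2 against 12.5 to 15.6 CPM) and EBs + RA (56.5 to 64.3 against 12.6 to 14.4 CPM). Neil1 was at 2.48 to 31.5, 1.38 to 6.06 and 2.18 to 4.34 CPM in its mutant in mESCs, EBs and EBs + RA, against 7.62 to 9.85, 5.80 to 9.19 and 6.05 to 8.12 CPM in controls, so that at least 1 Neil1 mESC library was above all controls. Neil2 was at 5.498 to 9.54, 6.61 to 17.9 and 4.86 to 5.85 CPM in its mutant, against 5.74 to 15.2, 6.45 to 10.7 and 3.40 to 4.50 CPM in controls. The kit did not keep the strand, and other genes overlap Ddb2, Sesn2, Gadd45a, 9630033F20Rik, Slc12a4, Ei24, Apaf1, Polk and Rrm2b. Reads over shared bases cannot be told apart by strand, and reads on several genes were left out of the counts. Rps27l has a close relative in Rps27.

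Levels between members were compared per length, as CPM per kilobase of exon, averaged over the control clones of the 3 stages. Rps27l (244) and Bax (174) were the most abundant on this scale, followed by Ccng1 (86.7). Cdkn1a was at 49.2, Mdm2 at 35.5, and Gdf15 (1.91), Rrm2b (1.36), Acer2 (1.15) and Fas (0.878) were the least abundant.

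Whether loss of each enzyme went along with higher p53 target expression, and at which stage, was asked by comparing each mutant with the controls of its stage. In EBs + RA members of 6 of the 7 branches rose in every mutant, among them Mdm2, Ccng1, Pmaip1, Perp, Trp53inp1, Sesn2, Gdf15 and Epha2, whereas in mESCs no member was called in Neil1 or Neil2 mutants. Genes were called at a false discovery rate (FDR, the Benjamini-Hochberg adjusted p of edgeR's quasi-likelihood test over all genes) below 0.1 where the log2 fold change also exceeded 0.5 in size. In EBs + RA 21 of 41 members rose and 1 fell in Neil1 mutants, 21 rose and 1 fell in Neil2 mutants, and 24 rose and 2 fell in the Apex1 line. Those raised made up 51.2%, 51.2% and 58.5% of the members. Of all genes tested, 21.2%, 18.3% and 13.9% rose and 19.9%, 16.6% and 10.9% fell. The share raised was thus above that of all genes, and the share lowered below it, in each mutant. The members were chosen with earlier results of these data known. The shares here and below were therefore given no test and are description only. The median log2 fold change of the members was 0.54 in Neil1, 0.50 in Neil2 and 0.67 in Apex1 mutants, where the median over all genes was 0.00, 0.00 and −0.02. The 3 mutants were compared with the same control libraries, so these counts are not independent of each other. In such bulk samples fewer cells of a type and less RNA per cell cannot be told apart.

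EBs without RA gave smaller and mixed counts. In Neil1 EBs 5 members rose and 3 fell, against 10.4% and 13.1% of all genes. In Neil2 EBs 4 rose and 2 fell, against 8.65% and 7.69% of all genes. In both, the share of members raised, 12.2% and 9.76%, lay near that of all genes and is no result about the members. In the Apex1 EBs 14 members rose and 2 fell, which is 34.1% and 4.88% of the members beside 11.9% and 13.9% of all genes. The medians over the members were 0.11, 0.09 and 0.37 in Neil1, Neil2 and Apex1, with medians of all genes of 0.00, 0.02 and 0.00.

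In mESCs edgeR called 0 members in Neil1 and 0 in Neil2 mutants, where 5 members each had an unadjusted p below 0.05 and DESeq2 called 1 each, a lower Acer2. Of all genes, 1.03% rose and 0.784% fell in Neil1 and 1.4% and 0.429% in Neil2. The medians over the members were −0.17 and −0.13. The Apex1 mESCs had 13 members raised and 0 lowered (31.7% raised), beside 7.87% raised and 9.07% lowered of all genes, with a median of 0.32 over the members and −0.02 over all genes. The count depended on having both duplicates: it was 0 when they were summed to 1 library and 0 without either of them, and it was 4 without control replicate 2 and 15 raised and 5 lowered without control replicate 3. Control replicate 3 had the lowest members of the mESC controls, with a median log2 difference of −0.24 from the control mean where the other two had 0.09 and 0.10. Without it, 0 members rose and 6 fell in Neil1 and 0 rose and 3 fell in Neil2 mESCs. The log2 fold changes hardly moved when the duplicates were summed, with 1.70 ± 0.294 (FDR 0.213) for Perp, 1.34 ± 0.22 (FDR 0.213) for Trp53inp1, 1.26 ± 0.204 (FDR 0.213) for Pmaip1 and 0.81 ± 0.207 (FDR 0.324) for Mdm2, while their errors and FDR rose, and the median over the members was 0.25 to 0.36 when each library was left out in turn. With summed duplicates the Apex1 counts at the other stages were 13 raised and 1 lowered in EBs and 18 raised and 0 lowered in EBs + RA. Without the first duplicate the count in Apex1 EBs + RA was 16 raised and 0 lowered.

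**Figure D1:**
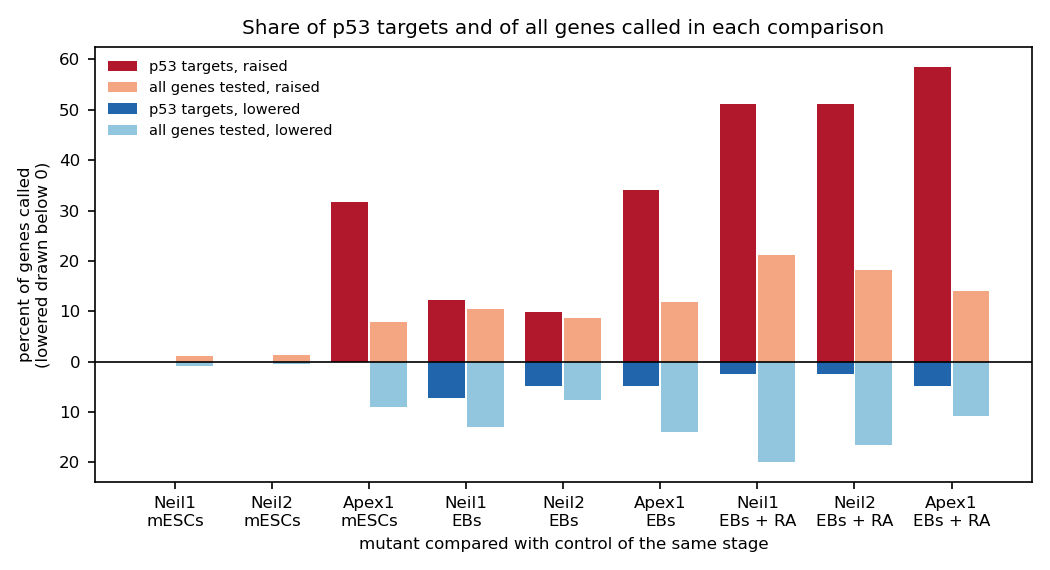
Share of the 41 p53 targets and of all genes tested that were raised or lowered in each of the 9 comparisons of a mutant with the controls of its stage, in percent. The bars of the members for raised genes in EBs + RA (51.2%, 51.2% and 58.5%) stand above those of all genes (21.2%, 18.3% and 13.9%), and in Neil1 and Neil2 mESCs no member was called.

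**Figure D2:**
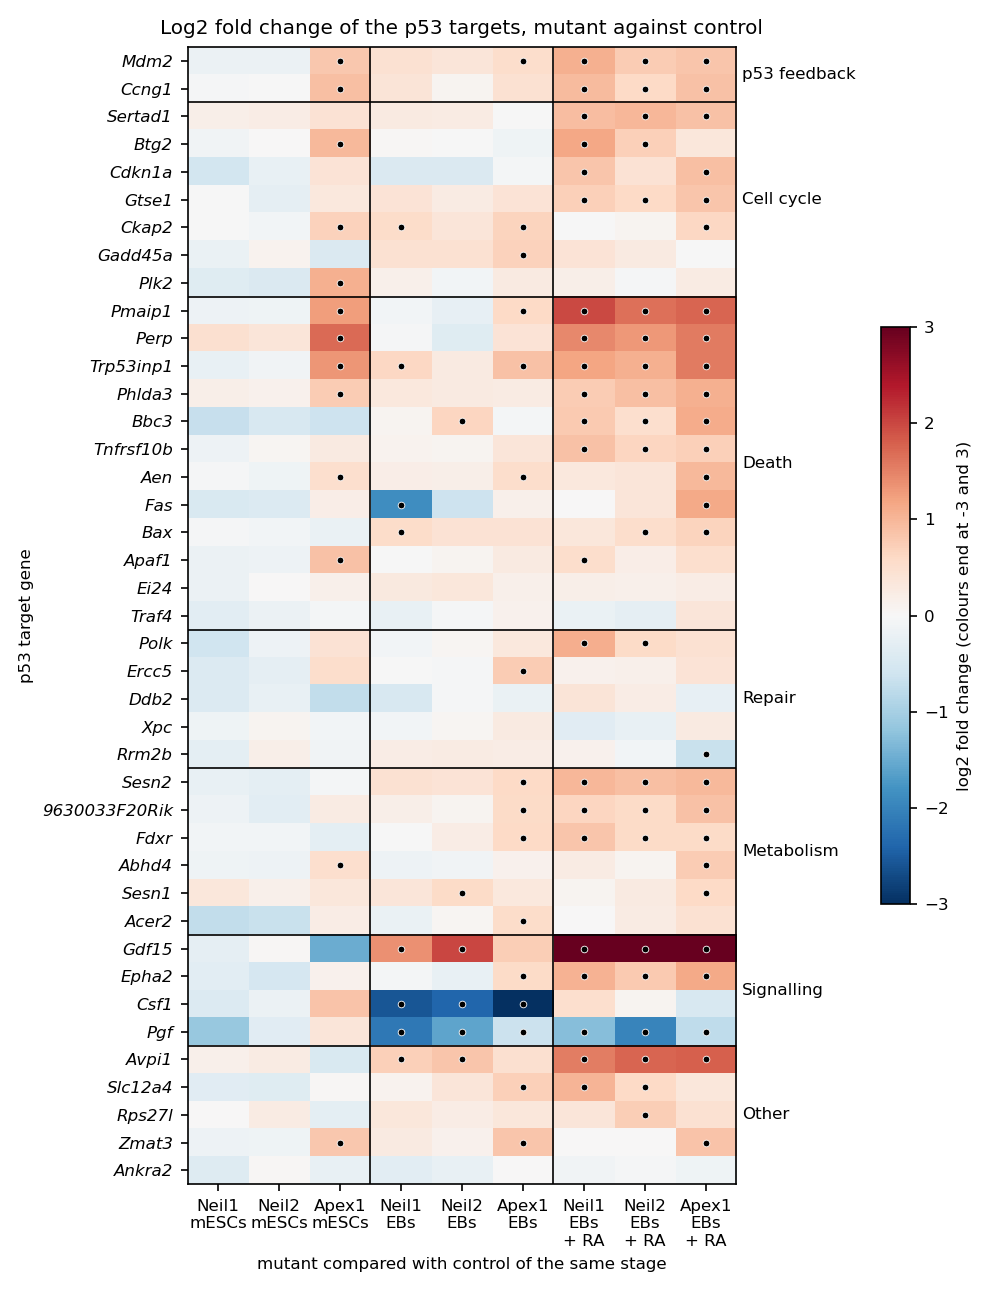
Log2 fold change of each of the 41 members (rows, ordered by branch) in the 9 comparisons of a mutant with control (columns), as a colour scale, with called values marked by dots. The EBs + RA columns are mostly raised in all mutants, while Csf1 is lowered in EBs and Pgf in both EBs and EBs + RA.

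Both feedback genes, Mdm2 and Ccng1, rose in all mutants in EBs + RA and in Apex1 mESCs. Mdm2 (ENSMUSG00000020184, chromosome 10 from 117125944 to 117147814) encodes the ligase that destroys p53. In mESCs, Mdm2 stood at 213, 195 and 201 CPM in the control clones, 164, 183 and 199 CPM in the Neil1 clones, 199, 167 and 184 CPM in the Neil2 clones and 367 and 359 CPM in the Apex1 duplicates. Mdm2 in EBs gave 174, 185 and 165 CPM in controls, compared with 225, 203 and 289 CPM in Neil1, 209, 238 and 223 CPM in Neil2 and 255 and 246 CPM in Apex1 libraries. Control EBs + RA had Mdm2 at 156, 149 and 181 CPM, Neil1 mutants at 364, 323 and 332 CPM, Neil2 mutants at 269, 298 and 250.2 CPM and the Apex1 line at 292 and 276 CPM. Every mutant library lay above every control library in EBs and in EBs + RA, while in mESCs the Apex1 duplicates alone stood above the controls. The log2 fold change of Mdm2, given ± its standard error, was 1.08 ± 0.135 (FDR 0.000972) in Neil1, 0.77 ± 0.125 (FDR 0.00309) in Neil2 and 0.84 ± 0.132 (FDR 0.00455) in Apex1 mutants in EBs + RA. In EBs it was 0.45 ± 0.123 (FDR 0.0202) in Neil1, 0.37 ± 0.117 (FDR 0.0758) in Neil2 and 0.52 ± 0.0851 (FDR 0.00126) in Apex1 mutants, of which only the Apex1 value was called, since the other two stayed under the fold limit. It was −0.17 ± 0.131 (FDR 0.569) in Neil1, −0.17 ± 0.118 (FDR 0.537) in Neil2 and 0.81 ± 0.122 (FDR 0.023) in Apex1 mutants in mESCs, again called in Apex1 alone.

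Ccng1 (ENSMUSG00000020326, chromosome 11 from 40562054 to 40568813) encodes cyclin G1, which helps activate Mdm2 by recruiting a phosphatase. Ccng1 in mESCs gave 356, 369 and 305 CPM in controls, compared with 334, 280.4 and 398 CPM in Neil1, 334, 339 and 366 CPM in Neil2 and 668 and 632 CPM in Apex1 libraries. Control EBs had Ccng1 at 309, 313 and 249 CPM, Neil1 mutants at 357, 322 and 456 CPM, Neil2 mutants at 284, 345 and 289 CPM and the Apex1 line at 388 and 413 CPM. In EBs + RA, Ccng1 stood at 301, 239 and 299 CPM in the control clones, 583, 469.6 and 561 CPM in the Neil1 clones, 359, 442 and 449 CPM in the Neil2 clones and 478 and 537 CPM in the Apex1 duplicates. The ranges of mutants and controls did not overlap in EBs + RA, and the Apex1 duplicates were the highest of the mESC libraries. Ccng1 rose by 0.95 ± 0.151 (FDR 0.00264) in Neil1, 0.59 ± 0.137 (FDR 0.013) in Neil2 and 0.89 ± 0.145 (FDR 0.00535) in Apex1 mutants in EBs + RA and by 0.89 ± 0.137 (FDR 0.0238) in Apex1 mESCs. In EBs its values of 0.38, 0.09 and 0.46 in Neil1, Neil2 and Apex1 were not called.

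Of the 7 members that act on the cell cycle, 4, 3 and 4 rose in Neil1, Neil2 and Apex1 EBs + RA and none fell. Of all genes 21.2%, 18.3% and 13.9% rose and 19.9%, 16.6% and 10.9% fell there, so with 7 genes the lack of falls there is no result about the branch. Cdkn1a (ENSMUSG00000023067, chromosome 17 from 29227924 to 29237667) encodes p21, the inhibitor of cyclin-dependent kinases through which p53 halts the cycle. Control mESCs had Cdkn1a at 71.0, 77.4 and 54.9 CPM, Neil1 mutants at 49.0, 31.3 and 60.1 CPM, Neil2 mutants at 69.5, 60.9 and 47.7 CPM and the Apex1 line at 90.2 and 94.2 CPM. In EBs, Cdkn1a stood at 150.3, 159 and 135 CPM in the control clones, 94.3, 86.2 and 146 CPM in the Neil1 clones, 128, 78.1 and 118 CPM in the Neil2 clones and 146 and 139.9 CPM in the Apex1 duplicates. Cdkn1a in EBs + RA gave 114, 102 and 122 CPM in controls, compared with 158, 172 and 266 CPM in Neil1, 173, 123 and 153 CPM in Neil2 and 228 and 186 CPM in Apex1 libraries. In EBs + RA the mutant libraries were all higher than the controls, and Neil1 replicate 3 was the highest. In EBs the Neil2 libraries were all lower than the controls and the other mutants overlapped them. Cdkn1a rose in Neil1 and Apex1 EBs + RA and missed the fold limit in Neil2, with log2 fold changes of 0.83 ± 0.206 (FDR 0.0161) in Neil1, 0.43 ± 0.146 (FDR 0.0524) in Neil2 and 0.91 ± 0.14 (FDR 0.00419) in Apex1 mutants. In EBs the values were −0.44 ± 0.187 (FDR 0.117) in Neil1, −0.44 ± 0.18 (FDR 0.153) in Neil2 and −0.05 ± 0.0927 (FDR 0.699) in Apex1 mutants, and in mESCs they were −0.55 ± 0.234 (FDR 0.313) in Neil1, −0.21 ± 0.173 (FDR 0.606) in Neil2 and 0.41 ± 0.158 (FDR 0.131) in Apex1 mutants, none of them called.

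Ckap2 (ENSMUSG00000037725, chromosome 8 from 23278624 to 23296291) encodes a protein of the mitotic spindle. In mESCs, Ckap2 stood at 125, 123 and 126 CPM in the control clones, 122, 118 and 136 CPM in the Neil1 clones, 116, 112 and 131 CPM in the Neil2 clones and 213 and 200.4 CPM in the Apex1 duplicates. Ckap2 in EBs gave 100.0, 90.0 and 89.1 CPM in controls, compared with 127, 124 and 155 CPM in Neil1, 99.6, 138 and 119 CPM in Neil2 and 142 and 152 CPM in Apex1 libraries. Control EBs + RA had Ckap2 at 90.8, 86.2 and 79.1 CPM, Neil1 mutants at 112, 90.0 and 52.6 CPM, Neil2 mutants at 68.4, 106 and 93.5 CPM and the Apex1 line at 122 and 134 CPM. The Apex1 duplicates exceeded all controls at each stage, Neil1 libraries did so in EBs, and both Neil genotypes overlapped the controls in EBs + RA. It rose by 0.70 ± 0.116 (FDR 0.0278) in Apex1 mESCs, by 0.54 ± 0.103 (FDR 0.00284) in Neil1 and 0.66 ± 0.0894 (FDR 0.000416) in Apex1 EBs, and by 0.62 ± 0.122 (FDR 0.0109) in Apex1 EBs + RA, with 0.00 and 0.08 in Neil1 and Neil2 EBs + RA. The Ckap2 call in Apex1 EBs + RA was lost with all genotypes in 1 fit (0.63 ± 0.254 (FDR 0.121)).

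Sertad1, a regulator that binds the kinase Cdk4, rose in EBs + RA by 0.92 ± 0.162 (FDR 0.00402) in Neil1, 1.00 ± 0.151 (FDR 0.00232) in Neil2 and 0.87 ± 0.184 (FDR 0.0141) in Apex1 mutants. Btg2, an inhibitor of proliferation, rose by 1.15 ± 0.163 (FDR 0.00159) in Neil1 and 0.73 ± 0.151 (FDR 0.00861) in Neil2 EBs + RA and by 0.97 ± 0.239 (FDR 0.0509) in Apex1 mESCs, and had 0.35 in Apex1 EBs + RA. Gtse1, which moves p53 out of the nucleus in G2, rose in EBs + RA with log2 fold changes of 0.72, 0.59 and 0.83. Plk2, a polo-like kinase, rose in the Apex1 mESCs alone, by 1.07 ± 0.162 (FDR 0.0235), and Gadd45a, a stress protein of growth arrest, in Apex1 EBs alone, by 0.69 ± 0.124 (FDR 0.00213). Of all 7 genes in this branch none was lowered in any mutant comparison, beside 0.429% to 19.9% of all genes lowered.

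**Figure D3:**
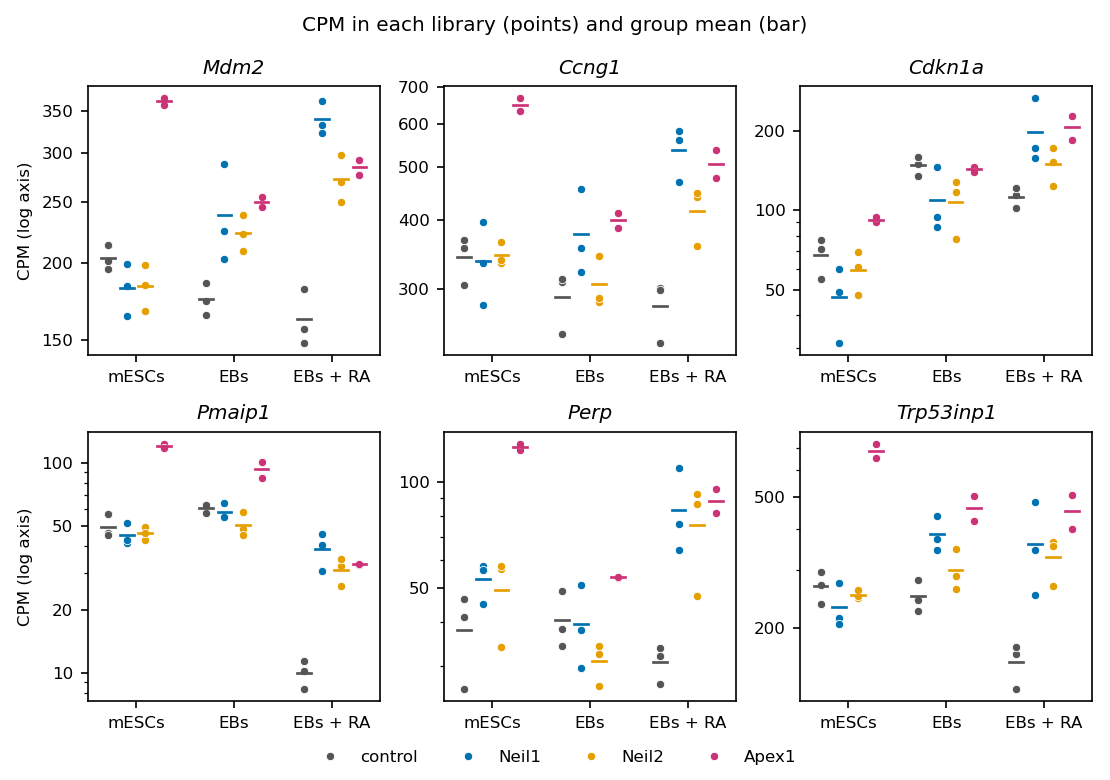
CPM of 6 members of the feedback, cell cycle and death branches in each library (points, log axis) with the group mean (bar), by stage, with genotype given by colour. In EBs + RA the mutant points of Mdm2, Ccng1, Pmaip1, Perp and Trp53inp1 lie above all control points, and in mESCs those of the Apex1 duplicates do.

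The death branch is the largest, and 7, 7 and 9 of 12 were raised in Neil1, Neil2 and Apex1 EBs + RA and 6 in Apex1 mESCs. Of all genes 21.2%, 18.3%, 13.9% and 7.87% rose in these comparisons. Pmaip1 (ENSMUSG00000024521, chromosome 18 from 66618258 to 66625204) encodes Noxa, a BH3-only protein that blocks survival factors at the mitochondrion. Pmaip1 in mESCs gave 46.3, 57.3 and 45.2 CPM in controls, compared with 51.6, 41.6 and 43.1 CPM in Neil1, 49.4, 42.9 and 46.6 CPM in Neil2 and 123 and 118 CPM in Apex1 libraries. Control EBs had Pmaip1 at 62.8, 57.6 and 62.9 CPM, Neil1 mutants at 55.0, 54.9 and 64.2 CPM, Neil2 mutants at 48.2, 58.5 and 45.2 CPM and the Apex1 line at 84.8 and 101 CPM. In EBs + RA, Pmaip1 stood at 10.2, 8.37 and 11.4 CPM in the control clones, 46.0, 40.5 and 30.4 CPM in the Neil1 clones, 32.3, 34.8 and 25.8 CPM in the Neil2 clones and 32.5 and 33.1 CPM in the Apex1 duplicates. Control values in EBs + RA were the lowest of all groups, and no mutant library there reached down to them, whereas Neil1 and Neil2 libraries overlapped the controls in mESCs and EBs. Pmaip1 rose by 1.97 ± 0.209 (FDR 0.00048) in Neil1, 1.65 ± 0.182 (FDR 0.000723) in Neil2 and 1.75 ± 0.171 (FDR 0.000925) in Apex1 mutants in EBs + RA. In Apex1 it also rose in mESCs, by 1.25 ± 0.137 (FDR 0.014), and in EBs, by 0.60 ± 0.101 (FDR 0.0014).

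Perp (ENSMUSG00000019851, chromosome 10 from 18564877 to 18576879) encodes a membrane protein of desmosomes that takes part in p53-driven apoptosis. Control mESCs had Perp at 41.4, 46.4 and 25.8 CPM, Neil1 mutants at 57.8, 45.0 and 56.4 CPM, Neil2 mutants at 34.0, 56.5 and 57.5 CPM and the Apex1 line at 123 and 128 CPM. In EBs, Perp stood at 34.2, 48.9 and 38.3 CPM in the control clones, 38.1, 29.6 and 50.8 CPM in the Neil1 clones, 26.3, 32.5 and 34.1 CPM in the Neil2 clones and 53.5 and 53.7 CPM in the Apex1 duplicates. Perp in EBs + RA gave 33.7, 26.6 and 32.1 CPM in controls, compared with 109.5, 76.1 and 64.0 CPM in Neil1, 47.4, 86.7 and 92.3 CPM in Neil2 and 95.2 and 81.5 CPM in Apex1 libraries. All mutant Perp values of EBs + RA were above the controls, and in mESCs the Apex1 duplicates were the highest libraries by a wide margin. It rose by 1.44 ± 0.213 (FDR 0.0019) in Neil1, 1.31 ± 0.237 (FDR 0.00497) in Neil2 and 1.55 ± 0.147 (FDR 0.000811) in Apex1 mutants in EBs + RA and by 1.70 ± 0.227 (FDR 0.0203) in Apex1 mESCs.

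Trp53inp1 (ENSMUSG00000028211, chromosome 4 from 11083578 to 11101526) encodes a nuclear stress protein that takes part in p53 phosphorylation. It was the member raised most often, in 6 of 9 comparisons. In mESCs, Trp53inp1 stood at 297, 270.0 and 237 CPM in the control clones, 215, 206 and 275 CPM in the Neil1 clones, 247, 249.5 and 261 CPM in the Neil2 clones and 719.5 and 652 CPM in the Apex1 duplicates. Trp53inp1 in EBs gave 279.5, 244 and 225 CPM in controls, compared with 373, 344 and 437 CPM in Neil1, 263, 347 and 287 CPM in Neil2 and 421 and 501 CPM in Apex1 libraries. Control EBs + RA had Trp53inp1 at 167, 131 and 176 CPM, Neil1 mutants at 481, 346 and 252 CPM, Neil2 mutants at 268, 364 and 354 CPM and the Apex1 line at 398 and 506 CPM. All mutant libraries exceeded all controls in EBs + RA, as did those of Neil1 and Apex1 in EBs and the Apex1 duplicates in mESCs. The rise was 1.19 ± 0.238 (FDR 0.00681) in Neil1, 1.08 ± 0.16 (FDR 0.00221) in Neil2 and 1.55 ± 0.167 (FDR 0.00124) in Apex1 mutants in EBs + RA. In EBs it was 0.62 ± 0.109 (FDR 0.00174) in Neil1 and 0.88 ± 0.11 (FDR 0.000243) in Apex1, with an uncalled 0.27 in Neil2, and in Apex1 mESCs it was 1.33 ± 0.143 (FDR 0.014).

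Phlda3 (ENSMUSG00000041801, chromosome 1 from 137662696 to 137665713) encodes an inhibitor of the survival kinase Akt. Phlda3 in mESCs gave 53.2, 56.8 and 41.7 CPM in controls, compared with 56.7, 56.0 and 61.2 CPM in Neil1, 48.4, 62.6 and 56.3 CPM in Neil2 and 84.7 and 91.5 CPM in Apex1 libraries. Control EBs had Phlda3 at 65.9, 91.2 and 52.5 CPM, Neil1 mutants at 76.0, 76.6 and 106 CPM, Neil2 mutants at 69.1, 78.7 and 103 CPM and the Apex1 line at 87.6 and 77.2 CPM. In EBs + RA, Phlda3 stood at 111, 111 and 114 CPM in the control clones, 174, 195 and 195 CPM in the Neil1 clones, 187, 199.8 and 232 CPM in the Neil2 clones and 279.6 and 178 CPM in the Apex1 duplicates. The Phlda3 ranges overlapped in EBs, while those of EBs + RA were apart for each mutant. Phlda3 rose by 0.75 ± 0.12 (FDR 0.00264) in Neil1, 0.90 ± 0.113 (FDR 0.00115) in Neil2 and 1.06 ± 0.182 (FDR 0.00627) in Apex1 mutants in EBs + RA and by 0.77 ± 0.151 (FDR 0.0345) in Apex1 mESCs, and without the first Apex1 duplicate the Apex1 value in EBs + RA was 0.70 and still called.

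Bbc3 (ENSMUSG00000002083, chromosome 7 from 16894965 to 16903554) encodes Puma, a BH3-only protein. Control mESCs had Bbc3 at 63.0, 67.1 and 26.3 CPM, Neil1 mutants at 39.0, 26.8 and 31.2 CPM, Neil2 mutants at 33.1, 49.96 and 29.9 CPM and the Apex1 line at 29.7 and 39.3 CPM. In EBs, Bbc3 stood at 30.2, 43.5 and 26.1 CPM in the control clones, 31.2, 35.1 and 39.6 CPM in the Neil1 clones, 54.9, 40.0 and 59.4 CPM in the Neil2 clones and 33.5 and 30.4 CPM in the Apex1 duplicates. Bbc3 in EBs + RA gave 27.7, 38.7 and 31.4 CPM in controls, compared with 53.4, 52.5 and 61.3 CPM in Neil1, 45.2, 40.7 and 50.8 CPM in Neil2 and 87.2 and 50.9 CPM in Apex1 libraries. Control replicate 3 of the mESCs was well below the other two, so that the ranges overlapped there, and they overlapped in EBs as well. In EBs + RA Bbc3 rose by 0.78 ± 0.161 (FDR 0.00767) in Neil1, 0.50 ± 0.157 (FDR 0.041) in Neil2 and 1.11 ± 0.235 (FDR 0.0144) in Apex1 mutants, and the Neil2 value lay at the fold limit and was not called without the filter on low counts or with all genotypes in 1 fit. Without the first Apex1 duplicate the Apex1 value was 0.67 and not called. Neil2 EBs gave 0.64 ± 0.214 (FDR 0.0881), the only called value of a mutant comparison whose groups overlapped.

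Bax (ENSMUSG00000003873, chromosome 7 from 52717065 to 52722268) encodes the effector that opens the outer mitochondrial membrane. In mESCs, Bax stood at 270.0, 299 and 269 CPM in the control clones, 289, 265 and 275 CPM in the Neil1 clones, 250, 292 and 265 CPM in the Neil2 clones and 242 and 254 CPM in the Apex1 duplicates. Bax in EBs gave 234, 256 and 177 CPM in controls, compared with 300.2, 311 and 373 CPM in Neil1, 205, 317 and 373 CPM in Neil2 and 304 and 298 CPM in Apex1 libraries. Control EBs + RA had Bax at 178, 222 and 186 CPM, Neil1 mutants at 223, 261 and 253 CPM, Neil2 mutants at 249, 283 and 298 CPM and the Apex1 line at 365 and 244 CPM. In EBs + RA each mutant library was above the controls, by a smaller margin than for Pmaip1 or Perp, and in EBs a Neil2 library overlapped them. The Bax fold change passed both limits in Neil1 EBs (0.56 ± 0.138 (FDR 0.014)) and, as 0.52 and 0.67, in Neil2 and Apex1 EBs + RA, and was 0.34 in Neil1 EBs + RA.

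Of the death receptors, Tnfrsf10b rose in EBs + RA with log2 fold changes of 0.87, 0.64 and 0.71. Fas, which rested on few counts, was 1.01 to 1.16 CPM in control EBs and 0.0407 to 0.45 CPM in Neil1 EBs, where it fell by 1.86 ± 0.51 (FDR 0.0201). In Apex1 EBs + RA it rose, with a log2 fold change of 1.14. Apaf1, the scaffold of the apoptosome, rose in Neil1 EBs + RA (0.54) and Apex1 mESCs (0.87), and Aen, an apoptosis-enhancing nuclease, rose in the Apex1 libraries of all stages (0.51, 0.53 and 0.97). Ei24 and Traf4 were called in no mutant comparison.

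In the repair branch, 1, 1 and 0 of 5 members were raised in Neil1, Neil2 and Apex1 EBs + RA, which in the Neil mutants is 20.0% and near the share of all genes. Polk, a polymerase that copies past lesions, rose by 1.10 ± 0.152 (FDR 0.00146) in Neil1 and 0.58 ± 0.133 (FDR 0.0124) in Neil2 EBs + RA, from 22.0 to 25.1 CPM in controls to 46.9 to 59.0 and 31.1 to 38.7 CPM. Ercc5, the nuclease XPG of nucleotide excision repair, rose in Apex1 EBs, by 0.76 ± 0.0899 (FDR 0.000172). Rrm2b, the subunit of ribonucleotide reductase that p53 controls, fell by 0.68 ± 0.211 (FDR 0.0558) in Apex1 EBs + RA, where it had 5.48 to 6.36 CPM against 8.67 to 10.8 CPM in controls, a call that was lost with summed duplicates (−0.67 ± 0.29 (FDR 0.244)) and held in 2 of 5 fits that left out 1 library. The damage sensors Ddb2 and Xpc were called in no mutant comparison, with Ddb2 at 0.38, 0.22 and −0.24 and Xpc at −0.33, −0.21 and 0.28 on the log2 scale in Neil1, Neil2 and Apex1 EBs + RA.

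In the metabolism branch 3, 3 and 5 of 6 members rose in Neil1, Neil2 and Apex1 EBs + RA, beside 21.2%, 18.3% and 13.9% of all genes. Sesn2 (ENSMUSG00000028893, chromosome 4 from 132047947 to 132066416) encodes a sestrin, which restrains the growth kinase mTORC1. Sesn2 in mESCs gave 216, 225 and 202 CPM in controls, compared with 179, 176 and 201 CPM in Neil1, 163, 177 and 191 CPM in Neil2 and 203 and 219 CPM in Apex1 libraries. Control EBs had Sesn2 at 136, 123 and 102 CPM, Neil1 mutants at 156, 136 and 206 CPM, Neil2 mutants at 143, 151 and 186 CPM and the Apex1 line at 188 and 176 CPM. In EBs + RA, Sesn2 stood at 90.1, 85.9 and 121 CPM in the control clones, 187, 206 and 191 CPM in the Neil1 clones, 181, 186 and 175 CPM in the Neil2 clones and 199 and 179 CPM in the Apex1 duplicates. The mutant values in EBs + RA lay close together and above all controls, while the Neil1 and Neil2 values in mESCs were all below the controls. Sesn2 rose by 0.98 ± 0.161 (FDR 0.003) in Neil1, 0.89 ± 0.145 (FDR 0.00318) in Neil2 and 0.97 ± 0.165 (FDR 0.00617) in Apex1 mutants in EBs + RA and by 0.59 ± 0.115 (FDR 0.00328) in Apex1 EBs, and was not called in Neil1 (−0.23) or Neil2 mESCs (−0.30).

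9630033F20Rik (ENSMUSG00000038028, chromosome 6 from 127035134 to 127059568) is Tigar, a phosphatase that slows glycolysis. Control mESCs had 9630033F20Rik at 71.4, 72.7 and 99.9 CPM, Neil1 mutants at 67.5, 79.8 and 75.2 CPM, Neil2 mutants at 75.9, 55.5 and 68.9 CPM and the Apex1 line at 102 and 96.6 CPM. In EBs, 9630033F20Rik stood at 61.5, 56.7 and 66.5 CPM in the control clones, 69.7, 77.7 and 61.9 CPM in the Neil1 clones, 53.04, 75.1 and 66.4 CPM in the Neil2 clones and 90.5 and 93.1 CPM in the Apex1 duplicates. 9630033F20Rik in EBs + RA gave 25.0, 23.4 and 22.2 CPM in controls, compared with 38.8, 40.2 and 30.5 CPM in Neil1, 30.1, 38.0 and 35.2 CPM in Neil2 and 44.0 and 40.4 CPM in Apex1 libraries. Its control values fell from EBs to EBs + RA, and all mutant libraries in EBs + RA were above them. The log2 fold change of 9630033F20Rik was 0.64 ± 0.159 (FDR 0.0158) in Neil1, 0.57 ± 0.134 (FDR 0.014) in Neil2 and 0.87 ± 0.136 (FDR 0.00443) in Apex1 mutants in EBs + RA and 0.57 ± 0.0951 (FDR 0.00133) in Apex1 EBs.

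Fdxr (ENSMUSG00000018861, chromosome 11 from 115129338 to 115138364) encodes ferredoxin reductase, an electron carrier enzyme of mitochondria. In mESCs, Fdxr stood at 22.9, 24.4 and 16.4 CPM in the control clones, 23.2, 15.5 and 21.7 CPM in the Neil1 clones, 20.1, 21.8 and 19.4 CPM in the Neil2 clones and 16.4 and 18.8 CPM in the Apex1 duplicates. Fdxr in EBs gave 10.8, 11.8 and 12.6 CPM in controls, compared with 9.01, 13.1 and 12.7 CPM in Neil1, 14.0, 12.7 and 14.0 CPM in Neil2 and 17.3 and 18.1 CPM in Apex1 libraries. Control EBs + RA had Fdxr at 14.1, 15.0 and 16.5 CPM, Neil1 mutants at 18.6, 20.2 and 41.8 CPM, Neil2 mutants at 22.3, 20.9 and 23.5 CPM and the Apex1 line at 21.5 and 22.6 CPM. Neil1 replicate 3 was far above the other Fdxr values in EBs + RA, where all mutant libraries were above the controls. Fdxr rose by 0.83 ± 0.303 (FDR 0.0625) in Neil1, 0.57 ± 0.14 (FDR 0.0164) in Neil2 and 0.57 ± 0.155 (FDR 0.0356) in Apex1 mutants in EBs + RA and by 0.59 ± 0.14 (FDR 0.00956) in Apex1 EBs. With all genotypes in 1 fit it was not called in Neil2 or Apex1 EBs + RA. Without Neil1 replicate 3 the Neil1 value was 0.36 and not called, and the call held in 3 of 6 fits that left out 1 library. The Apex1 call of EBs + RA was lost with summed duplicates (0.57 ± 0.211 (FDR 0.186)) and held in 2 of 5 such fits.

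The other sestrin, Sesn1, rose in Neil2 EBs by 0.57 ± 0.174 (FDR 0.0673) and in Apex1 EBs + RA (0.60). Acer2, a ceramidase, rose in Apex1 EBs (0.56), and Abhd4, a lipase of membrane lipids, rose in Apex1 mESCs by 0.51 ± 0.146 (FDR 0.0698) and in Apex1 EBs + RA (0.77).

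The signalling branch held both the largest rise and most of the falls. Gdf15 (ENSMUSG00000038508, chromosome 8 from 73153292 to 73156355) encodes a secreted stress factor of the TGF-beta family. Gdf15 in mESCs gave 8.64, 14.9 and 3.14 CPM in controls, compared with 10.4, 3.28 and 8.66 CPM in Neil1, 9.95, 10.8 and 7.06 CPM in Neil2 and 2.96 and 3.53 CPM in Apex1 libraries. Control EBs had Gdf15 at 0.967, 1.99 and 1.14 CPM, Neil1 mutants at 3.003, 3.42 and 3.91 CPM, Neil2 mutants at 5.55, 4.02 and 6.49 CPM and the Apex1 line at 2.55 and 1.91 CPM. In EBs + RA, Gdf15 stood at 0.264, 0.377 and 0.398 CPM in the control clones, 2.04, 2.79 and 4.12 CPM in the Neil1 clones, 2.14, 2.97 and 3.61 CPM in the Neil2 clones and 3.68 and 2.21 CPM in the Apex1 duplicates. Levels were low throughout, and in EBs + RA each mutant library was above each control library, as were the Neil1 and Neil2 libraries in EBs. Gdf15 rose by 3.10 ± 0.394 (FDR 0.00103) in Neil1, 3.07 ± 0.348 (FDR 0.000776) in Neil2 and 3.10 ± 0.381 (FDR 0.00193) in Apex1 mutants in EBs + RA, and by 1.36 ± 0.301 (FDR 0.00675) in Neil1 and 2.00 ± 0.336 (FDR 0.00668) in Neil2 EBs.

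Pgf (ENSMUSG00000004791, chromosome 12 from 86507589 to 86518246) encodes placental growth factor, a ligand of the VEGF family. Control mESCs had Pgf at 2.71, 2.38 and 1.14 CPM, Neil1 mutants at 1.10, 0.421 and 1.33 CPM, Neil2 mutants at 1.97, 1.60 and 1.47 CPM and the Apex1 line at 2.69 and 2.77 CPM. In EBs, Pgf stood at 5.36, 6.93 and 7.30 CPM in the control clones, 1.80, 1.02 and 1.60 CPM in the Neil1 clones, 3.38, 1.67 and 1.26 CPM in the Neil2 clones and 4.26 and 4.12 CPM in the Apex1 duplicates. Pgf in EBs + RA gave 8.36, 7.92 and 7.15 CPM in controls, compared with 2.14, 1.75 and 5.74 CPM in Neil1, 2.66, 1.53 and 1.63 CPM in Neil2 and 3.85 and 5.15 CPM in Apex1 libraries. Mutant libraries were below all controls in EBs and in EBs + RA and overlapped them in mESCs. Pgf fell in all mutants, with log2 fold changes of −1.28 ± 0.429 (FDR 0.0462) in Neil1, −1.99 ± 0.278 (FDR 0.00172) in Neil2 and −0.76 ± 0.234 (FDR 0.0532) in Apex1 mutants in EBs + RA and −2.15 ± 0.26 (FDR 0.000177) in Neil1, −1.59 ± 0.365 (FDR 0.0243) in Neil2 and −0.64 ± 0.209 (FDR 0.0392) in Apex1 mutants in EBs. The Apex1 falls were lost with summed duplicates or with all genotypes in 1 fit. The Neil1 fall in EBs + RA was called in 2 of 6 fits that left out 1 library, with values from −1.996 without Neil1 replicate 3 to −0.99 without Neil1 replicate 2.

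Epha2 (ENSMUSG00000006445, chromosome 4 from 140857155 to 140885299) encodes a receptor of ephrins. In mESCs, Epha2 stood at 180.3, 185 and 234 CPM in the control clones, 139.9, 169.7 and 174 CPM in the Neil1 clones, 146, 147 and 138 CPM in the Neil2 clones and 210.2 and 233 CPM in the Apex1 duplicates. Epha2 in EBs gave 167, 147 and 124 CPM in controls, compared with 122, 123 and 175 CPM in Neil1, 85.2, 141 and 147 CPM in Neil2 and 215 and 221 CPM in Apex1 libraries. Control EBs + RA had Epha2 at 39.6, 40.5 and 43.6 CPM, Neil1 mutants at 69.7, 82.6 and 101 CPM, Neil2 mutants at 55.7, 86.5 and 68.7 CPM and the Apex1 line at 100.0 and 77.8 CPM. Mutant EBs + RA lay above the controls, whereas in mESCs the Neil1 and Neil2 libraries lay below them. Epha2 rose by 1.04 ± 0.16 (FDR 0.00231) in Neil1, 0.79 ± 0.163 (FDR 0.0083) in Neil2 and 1.14 ± 0.144 (FDR 0.00213) in Apex1 mutants in EBs + RA and by 0.57 ± 0.113 (FDR 0.00352) in Apex1 EBs, and was not called in Neil1 (−0.32) or Neil2 mESCs (−0.50).

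Csf1, a growth factor of macrophages, was at 16.6 to 28.2 CPM in control EBs and at 3.17 to 5.44, 1.97 to 8.13 and 2.78 to 2.92 CPM in Neil1, Neil2 and Apex1 EBs. It fell in each, with log2 fold changes of −2.56 ± 0.266 (FDR 0.000131) in Neil1, −2.39 ± 0.463 (FDR 0.0123) in Neil2 and −3.08 ± 0.268 (FDR 6.76e-05) in Apex1 mutants. With RA the groups overlapped, and the values of 0.50, 0.09 and −0.48 were not called.

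**Figure D4:**
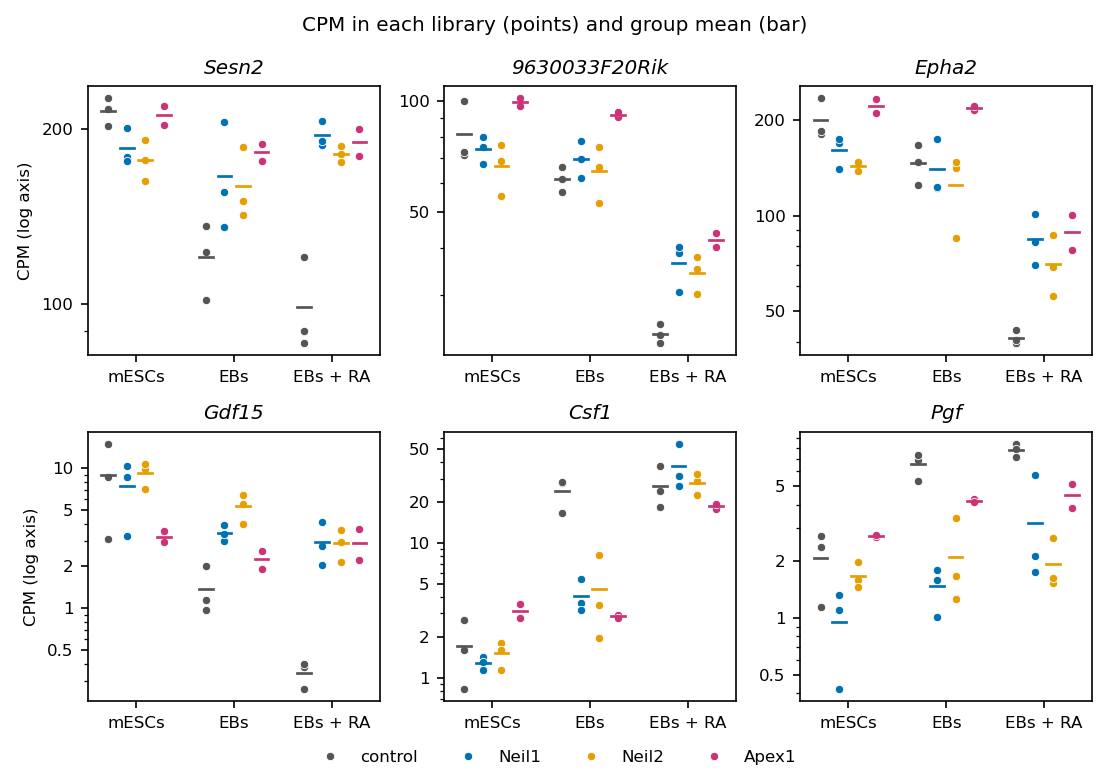
CPM of 6 members of the metabolism and signalling branches in each library (points, log axis) with the group mean (bar), by stage, with genotype given by colour. Gdf15, Epha2, Sesn2 and 9630033F20Rik are higher in all mutant than in all control EBs + RA, and Pgf is lower.

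Among the other members, Avpi1 (ENSMUSG00000018821, chromosome 19 from 42197763 to 42203549), named for its induction by vasopressin, was raised in 5 comparisons. Avpi1 in mESCs gave 84.7, 99.1 and 67.1 CPM in controls, compared with 122, 83.8 and 75.1 CPM in Neil1, 80.3, 128 and 92.6 CPM in Neil2 and 55.3 and 68.1 CPM in Apex1 libraries. Control EBs had Avpi1 at 47.4, 62.3 and 51.0 CPM, Neil1 mutants at 87.4, 99.3 and 76.6 CPM, Neil2 mutants at 80.0, 100.4 and 102 CPM and the Apex1 line at 80.8 and 69.2 CPM. In EBs + RA, Avpi1 stood at 20.4, 27.0 and 36.0 CPM in the control clones, 78.4, 81.6 and 79.3 CPM in the Neil1 clones, 108, 96.0 and 73.0 CPM in the Neil2 clones and 112 and 75.0 CPM in the Apex1 duplicates. The Avpi1 values of EBs and EBs + RA were higher in each mutant library than in any control, and those of mESCs overlapped. It rose by 1.53 ± 0.205 (FDR 0.00127) in Neil1, 1.75 ± 0.231 (FDR 0.00141) in Neil2 and 1.78 ± 0.25 (FDR 0.00289) in Apex1 mutants in EBs + RA, and by 0.71 ± 0.126 (FDR 0.00198) in Neil1 and 0.83 ± 0.149 (FDR 0.009) in Neil2 EBs. Slc12a4, a potassium and chloride transporter, rose by 1.01 ± 0.196 (FDR 0.00607) in Neil1 EBs + RA, by 0.60 in Neil2 EBs + RA and by 0.73 ± 0.091 (FDR 0.000255) in Apex1 EBs. Zmat3, a zinc finger protein that binds RNA, rose in the Apex1 libraries of all stages, by 0.82 ± 0.121 (FDR 0.022) in mESCs, 0.84 ± 0.0901 (FDR 0.0001) in EBs and 0.85 ± 0.121 (FDR 0.00309) in EBs + RA, with 0.01 and 0.02 in Neil1 and Neil2 EBs + RA. Rps27l, a ribosomal protein, rose in Neil2 EBs + RA by 0.73 ± 0.212 (FDR 0.0309), and Ankra2 was called in no mutant comparison.

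How the targets move in differentiation without a mutation was asked in the 9 control libraries. From mESCs to EBs 4 members rose and 9 fell (9.76% and 22.0%), beside 19% and 19.4% of all genes, and from EBs to EBs + RA 4 rose and 8 fell (9.76% and 19.5%), beside 22% and 21.1%. The medians over the members were −0.19 and −0.12, and over all genes −0.01 and 0.00. The shares lowered were near those of all genes, and the shares raised were below them. Csf1 rose from mESCs to EBs by 3.81 ± 0.399 (FDR 2.63e-05), Pgf by 1.64 ± 0.299 (FDR 0.00128), Cdkn1a by 1.12 ± 0.141 (FDR 9.74e-05) and Ankra2 by 0.80 ± 0.205 (FDR 0.00924). Among the falls of that step were Gdf15 at −2.72 ± 0.496 (FDR 0.00127), Acer2 at −1.13 ± 0.2 (FDR 0.00108), Fas at −1.09 ± 0.403 (FDR 0.0489), Fdxr at −0.86 ± 0.176 (FDR 0.00254) and Slc12a4 at −0.86 ± 0.125 (FDR 0.000268). Rrm2b fell by 0.78 ± 0.203 (FDR 0.00975), Gadd45a by 0.70 ± 0.202 (FDR 0.0165) and Avpi1 by 0.65 ± 0.203 (FDR 0.0247), and the groups of Fas and of Gadd45a overlapped. Ankra2 was at 0.48 without control replicate 3 and Fas at −0.57 without control replicate 2, both then not called. The calls of Fas, Rrm2b, Gadd45a and Avpi1 each held in only 1 of 3 fits that left out 1 control clone.

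With RA, Pmaip1 fell by 2.62 ± 0.15 (FDR 1.8e-07), Gdf15 by 1.96 ± 0.58 (FDR 0.0161), Epha2 by 1.84 ± 0.144 (FDR 1.76e-06) and 9630033F20Rik by 1.40 ± 0.145 (FDR 1.43e-05) in the controls. Smaller falls were those of Avpi1 (−0.96 ± 0.206 (FDR 0.00272)), Gtse1 (−0.70 ± 0.176 (FDR 0.00645)) and Trp53inp1 (−0.67 ± 0.143 (FDR 0.00249)), and Aen, the eighth, at −0.54 ± 0.106 (FDR 0.00145). Plk2 rose by 0.87 ± 0.151 (FDR 0.00066), Phlda3 by 0.67 ± 0.183 (FDR 0.0109), Rrm2b by 0.66 ± 0.203 (FDR 0.0198) and Sesn1 by 0.58 ± 0.176 (FDR 0.0183). When 1 control clone was left out, the calls of Rrm2b and Sesn1 held in 1 of 3 fits and those of Gtse1 and Phlda3 in 2 of 3. Cdkn1a and Mdm2, at −0.41 and −0.12, were not called. Pmaip1, Gdf15, Epha2, 9630033F20Rik, Avpi1, Gtse1 and Trp53inp1 were also among the members raised in all mutants in EBs + RA, whereas Aen was raised there in Apex1 alone, and since both comparisons use the control EBs + RA libraries, a low control value would enter both. With the clone as a block the counts were 4 raised and 10 lowered from mESCs to EBs and 4 raised and 8 lowered with RA.

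Whether the change of a mutant differed between stages was tested as the difference of its log2 fold changes, in 1 fit over control and mutant libraries of all stages. Between EBs + RA and EBs, 17 members in Neil1, 9 in Neil2 and 9 in Apex1 had a higher log2 fold change with RA, and 0, 0 and 1 a lower one. Of all genes 14.5%, 8.54% and 9.35% had a higher and 11.9%, 7.44% and 5.1% a lower one, and the members' shares were 41.5%, 22.0% and 22.0%. The median difference over the members was 0.57, 0.36 and 0.28, beside 0.07, 0.04 and 0.01 over all genes. The counts depended on single libraries. In Neil1 the total was 9 without control replicate 1, 6 without control replicate 2 and 11 without Neil1 replicate 1. In Neil2 it was 4, 3 and 14 without control replicates 1, 2 and 3, and 6 without Neil2 replicate 2. In Apex1 it was 5, 5 and 17 without these controls, and 1 and 2 without the first and the second duplicate.

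The difference in Neil1 was 3.08 ± 0.509 (FDR 0.000601) for Csf1, 2.05 ± 0.222 (FDR 8.28e-06) for Pmaip1, 1.28 ± 0.34 (FDR 0.0143) for Cdkn1a and 1.18 ± 0.305 (FDR 0.0117) for Polk. It was 0.93 ± 0.236 (FDR 0.011) for Slc12a4, 0.63 ± 0.181 (FDR 0.0205) for Mdm2 and 0.53 ± 0.219 (FDR 0.0947) for Sesn2, the last of which was not called with RLE size factors, without the filter or by DESeq2. In Neil2 Csf1 differed by 2.49 ± 0.581 (FDR 0.00905), Pmaip1 by 1.92 ± 0.209 (FDR 1.04e-05), Avpi1 by 0.94 ± 0.301 (FDR 0.0518), Cdkn1a by 0.89 ± 0.259 (FDR 0.0318) and Ccng1 by 0.52 ± 0.19 (FDR 0.0895), the last not called with those same 3 settings. In Apex1 the differences were 2.59 ± 0.496 (FDR 0.00331) for Csf1, 1.28 ± 0.321 (FDR 0.0187) for Avpi1, 1.13 ± 0.281 (FDR 0.0177) for Perp and 0.95 ± 0.201 (FDR 0.00645) for Cdkn1a, and Rrm2b differed the other way, by −0.91 ± 0.292 (FDR 0.0609). The Csf1 differences stand beside its lower values in mutant EBs, and Csf1 was not called in any mutant with RA.

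Between EBs and mESCs, 3 members in Neil1, 4 in Neil2 and 8 in Apex1 had a higher log2 fold change in EBs and 1, 1 and 7 a lower one. Of all genes 2.36%, 3.65% and 11.6% had a higher and 5.16%, 5.5% and 12.6% a lower one, and the members' shares were 7.32%, 9.76% and 19.5% and 2.44%, 2.44% and 17.1%. In Neil1 the difference was −2.16 ± 0.562 (FDR 0.0341) for Csf1, 0.83 ± 0.268 (FDR 0.0881) for Trp53inp1, 0.67 ± 0.219 (FDR 0.0911) for Sesn2 and 0.61 ± 0.181 (FDR 0.0638) for Mdm2. In Neil2 it was −2.23 ± 0.643 (FDR 0.0478) for Csf1, 1.93 ± 0.58 (FDR 0.0551) for Gdf15, 0.70 ± 0.21 (FDR 0.0547) for Slc12a4, 0.69 ± 0.198 (FDR 0.0461) for Sesn2 and 0.51 ± 0.157 (FDR 0.0653) for Mdm2. With the clone as a block, which pairs libraries of the same clone across stages, the call of Trp53inp1 (FDR 0.108) and of Sesn2 (FDR 0.119) in Neil1 and of Mdm2 (FDR 0.109) in Neil2 was lost. Apex1 mixed both directions, with 2.19 ± 0.689 (FDR 0.0404) for Gdf15, 1.11 ± 0.276 (FDR 0.0135) for Gadd45a, 0.93 ± 0.319 (FDR 0.0566) for Avpi1, 0.86 ± 0.236 (FDR 0.0214) for Fdxr and 0.61 ± 0.24 (FDR 0.0895) for Bax. Lower in Apex1 EBs than in Apex1 mESCs, each relative to controls, were Csf1 (−3.96 ± 0.544 (FDR 0.000267)), Perp (−1.32 ± 0.281 (FDR 0.00551)) and Btg2 (−1.12 ± 0.28 (FDR 0.0136)). The totals fell to 1 of 41 without either Apex1 duplicate, and to 9 and 8 without control replicates 1 and 2. For Neil1 they were 1, 1 and 1 without control replicate 1, control replicate 2 and Neil1 replicate 1, 1 without Neil1 replicate 2 and 2 without Neil1 replicate 3, and for Neil2 they were 0 and 1 without control replicates 1 and 2, and 9 and 0 without Neil2 replicates 1 and 3.

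The mutants were also compared with each other. Between Neil1 and Neil2 mutants edgeR called 0 members and 0% of all genes in either direction at every stage. Of the members, 1, 5 and 6 had an unadjusted p below 0.05 in mESCs, EBs and EBs + RA, and DESeq2 called 0, 0 and 1, the last being Polk, higher in Neil1 EBs + RA. Its edgeR value was 0.51 ± 0.142 (FDR 0.314). In EBs + RA the difference of Neil1 from Neil2 was 0.30 ± 0.121 (FDR 0.318) for Mdm2 and 0.39 ± 0.198 (FDR 0.383) for Cdkn1a, which does not show that the genotypes act alike. Apex1 differed more from the mean of the Neil mutants. In mESCs 20 members were higher and 2 lower in Apex1 (48.8% and 4.88%), beside 15.3% and 14% of all genes. In EBs 8 were higher and 1 lower, beside 9.94% and 10.8%, and in EBs + RA 7 and 4, beside 16.6% and 11.5%. The member shares raised in EBs and EBs + RA, 19.5% and 17.1%, were above and near those of all genes. In EBs the total fell to 3 without either Apex1 duplicate, and in EBs + RA to 4 without the first.

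In mESCs Apex1 was above the Neil mutants by 1.498 ± 0.118 (FDR 5.08e-05) for Trp53inp1, 1.48 ± 0.131 (FDR 8.68e-05) for Plk2, 1.39 ± 0.115 (FDR 6.32e-05) for Pmaip1, 1.29 ± 0.209 (FDR 0.00145) for Perp, 1.16 ± 0.338 (FDR 0.0232) for Csf1 and 0.98 ± 0.105 (FDR 0.00019) for Mdm2. Those of Zmat3, Acer2 and Ercc5 were 0.97 ± 0.115 (FDR 0.000287), 0.93 ± 0.135 (FDR 0.000835) and 0.87 ± 0.17 (FDR 0.00367). Gdf15 (−1.36 ± 0.556 (FDR 0.0891)) and Avpi1 (−0.65 ± 0.226 (FDR 0.0461)) were lower in Apex1. In EBs Apex1 was higher for Fas (1.37 ± 0.431 (FDR 0.04)), Pgf (1.22 ± 0.316 (FDR 0.0177)), Ercc5 (0.78 ± 0.148 (FDR 0.00353)), Zmat3 (0.62 ± 0.111 (FDR 0.00233)) and Acer2 (0.62 ± 0.231 (FDR 0.0766)) and lower for Gdf15 (−0.97 ± 0.306 (FDR 0.0412)). In EBs + RA Apex1 was higher for Fas (0.96 ± 0.352 (FDR 0.0651)), Zmat3 (0.85 ± 0.109 (FDR 0.00028)), Abhd4 (0.61 ± 0.154 (FDR 0.0139)), Ckap2 (0.60 ± 0.222 (FDR 0.0678)) and Xpc (0.57 ± 0.127 (FDR 0.00739)). It was lower there for Csf1 (−0.76 ± 0.299 (FDR 0.082)), Rrm2b (−0.68 ± 0.191 (FDR 0.0222)) and Btg2 (−0.58 ± 0.154 (FDR 0.0181)). Zmat3 was thus higher in Apex1 than in the Neil mutants at every stage.

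The rest of the pathway was read from lists of genes that are not targets in the sense above. Trp53, the gene of p53 itself, was at 166 to 255 CPM in control EBs + RA, 99.2 to 156 CPM in Neil1, 91.0 to 215 CPM in Neil2 and 187 to 216 CPM in Apex1. The Neil1 libraries were below all controls, and those of Neil2 and Apex1 overlapped them. Trp53 fell in Neil1 EBs + RA by 0.74 ± 0.216 (FDR 0.0287), and its values of −0.38 ± 0.301 (FDR 0.366) in Neil2 and −0.09 ± 0.191 (FDR 0.782) in Apex1 were not called. At the other stages it was called in no mutant, with log2 fold changes of −0.25, −0.41 and −0.14 in mESCs and 0.37, 0.14 and 0.14 in EBs. In controls it fell with RA by 0.68 ± 0.239 (FDR 0.0355). The counts measure mRNA and say nothing of the stability of the protein.

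Of the 16 genes in the list of p53 and its regulators, 2 rose and 3 fell in Neil1, 2 and 2 in Neil2, and 2 and 0 in Apex1 EBs + RA. The share raised was 12.5% in each mutant and the share lowered 18.8%, 12.5% and 0%, near or below those of all genes, so the counts are no result about the list. Cdkn2a, whose Arf product binds Mdm2 and shields p53, was raised in Neil1 and Neil2 at every stage, by 1.51 ± 0.275 (FDR 0.0766), 1.11 ± 0.17 (FDR 0.000916) and 1.00 ± 0.143 (FDR 0.00173) in Neil1 and 1.27 ± 0.283 (FDR 0.0917), 1.41 ± 0.202 (FDR 0.00351) and 1.34 ± 0.161 (FDR 0.000986) in Neil2 mESCs, EBs and EBs + RA. In mESCs it had 6.17 to 13.3 CPM in controls, 23.3 to 33.1 CPM in Neil1, 18.2 to 30.2 CPM in Neil2 and 7.72 to 8.89 CPM in Apex1, so that the Neil clones lay above the controls and the Apex1 duplicates among them. In Apex1 it fell in EBs (−0.59 ± 0.194 (FDR 0.0403)) and rose in EBs + RA (0.62 ± 0.225 (FDR 0.0885)). The counts are per gene and do not tell Arf from other products of Cdkn2a. Trp73, a relative of p53, rose by 1.27 ± 0.369 (FDR 0.029) in Neil1, 1.51 ± 0.487 (FDR 0.0454) in Neil2 and 2.19 ± 0.384 (FDR 0.00696) in Apex1 mutants in EBs + RA, from 0.596 to 1.09 CPM in controls. It also rose in EBs, by 1.05, 0.93 and 1.49, and by 0.93 in Apex1 mESCs. Trp53bp1, which marks double-strand breaks, fell in EBs + RA by 0.96 ± 0.153 (FDR 0.00265) in Neil1 and 0.94 ± 0.141 (FDR 0.00232) in Neil2. Ppm1d, the phosphatase Wip1 and itself under p53 control, rose in Apex1 mESCs by 0.65 ± 0.104 (FDR 0.0256).

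Genes that p53 lowers through p21 and the DREAM complex, which shuts cell cycle genes, were read in a list of 16. In EBs + RA 1 rose and 6 fell in Neil1, 1 and 2 in Neil2 and 1 and 0 in Apex1. This is 37.5%, 12.5% and 0% of the list lowered, beside 19.9%, 16.6% and 10.9% of all genes. The medians were −0.31, −0.05 and −0.02. Top2a, the topoisomerase of dividing cells, fell by 0.78 ± 0.141 (FDR 0.0045) in Neil1 and 0.55 ± 0.0971 (FDR 0.00438) in Neil2, and Aurkb, a mitotic kinase, by 0.77 ± 0.154 (FDR 0.00682) and 0.52 ± 0.138 (FDR 0.0224). Mybl2, a cell cycle activator that binds part of that complex, rose in all mutants, by 0.96 ± 0.193 (FDR 0.00684) in Neil1, 0.97 ± 0.193 (FDR 0.00728) in Neil2 and 1.04 ± 0.178 (FDR 0.00627) in Apex1 mutants. In EBs without RA 1, 1 and 0 of the list rose in Neil1, Neil2 and Apex1 and none fell. Of all genes 10.4%, 8.65% and 11.9% rose and 13.1%, 7.69% and 13.9% fell there, so these counts are no result about the list. In mESCs 1 gene, E2f1, fell in Apex1 (−0.63 ± 0.192 (FDR 0.0804)), where 9.07% of all genes fell.

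Markers of other cell types moved with the genotypes in the EBs. In EBs + RA the summed level of 6 neural markers was 323 to 500.4 CPM in controls, 53.1 to 68.5 CPM in Neil1, 68.3 to 74.0 CPM in Neil2 and 102 to 113 CPM in Apex1, and 6, 6 and 5 of the 6 fell. The summed level of 6 pluripotency markers there was 144 to 177 CPM in controls and 266 to 349, 186 to 538 and 569 to 712 CPM in Neil1, Neil2 and Apex1, where 5, 5 and 4 rose. No mutant library overlapped the controls on either sum in EBs + RA. The neural sum is not particular to neural cells, as it was 461 to 496 CPM in control mESCs. Stmn2 alone had a mean of 312 CPM in control mESCs and 15.5 CPM in control EBs + RA. Of all genes 19.9%, 16.6% and 10.9% fell and 21.2%, 18.3% and 13.9% rose in Neil1, Neil2 and Apex1 EBs + RA. Endoderm markers, 7 in number, summed to 205 to 533 CPM in controls, 587 to 1230.0 in Neil1, 207 to 603 in Neil2 and 275 to 284 CPM in Apex1 EBs + RA. The part of these shifts in the higher p53 targets of the mutants was not tested.

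In EBs the 7 markers of mesoderm and heart summed to 152 to 159 CPM in controls and to 12.8 to 18.9, 12.5 to 17.3 and 21.1 to 22.3 CPM in Neil1, Neil2 and Apex1. Csf1 and Pgf were both lower in these mutant EBs. Pgf was also lower in mutant EBs + RA, where the mesoderm sums lay closer together. They were 28.7 to 37.5 CPM in controls and 19.9 to 106, 25.3 to 29.0 and 34.6 to 38.6 CPM in Neil1, Neil2 and Apex1. The pluripotency sum was 1580.1 to 1629 CPM in control EBs and 2442 to 2816, 1858 to 2889 and 2669 to 2847 CPM in the mutants, and the endoderm sum was 367 to 729.7 CPM in controls and 110.2 to 117 CPM in Apex1. Blood markers, 4 in number, stayed at or below 5.23 CPM in sum in every library. In mESCs the pluripotency sum was 3774 to 3883 CPM in controls, 3589 to 3969 in Neil1, 3749 to 4016 in Neil2 and 3106 to 3137 CPM in Apex1, so that the defining markers were high in all and the Apex1 duplicates, in which the members were raised, stood lowest. Sox1 had no identifier under that symbol and is not analysed here. The part of the markers in the results on Csf1, Pgf and the Apex1 mESCs was not tested.

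**Figure D5:**
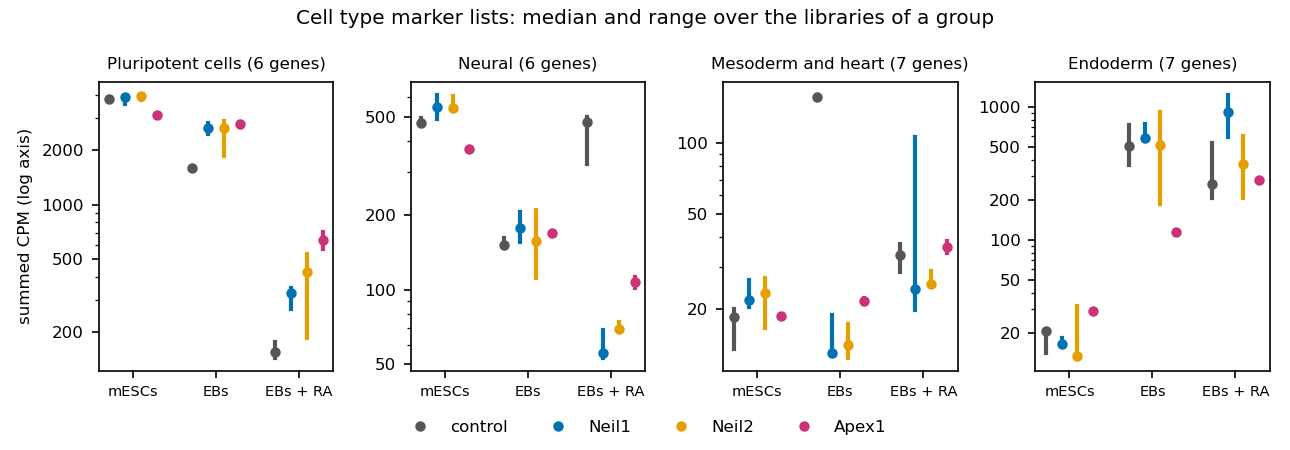
Summed CPM of the pluripotency, neural, mesoderm and endoderm markers (log axis) by stage, as the median (points) and the range (lines) over the libraries of a group, with genotype given by colour. In EBs + RA every mutant library is below the controls in neural and above them in pluripotency markers, and in EBs every mutant library is below them in mesoderm markers.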

How the data were processed

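RNA-seq had been made from mESCs, EBs and EBs + RA with a polyA kit that keeps no strand. According to the paper's methods and the submitters' processing notes, the authors aligned reads with TopHat2 2.0.9 and Bowtie2 2.1.0 to NCBIM37/mm9, counted them with HTSeq 0.5.4 and tested with DESeq2 1.6.3. The deposited values were raw read counts per Ensembl gene in each library, not normalised. Reads on no gene (5.86% to 8.85%), on several genes (1.89% to 2.88%) or aligned to several places (11.4% to 19.9%) were left out of totals and tests. Symbols and coordinates came from the GENCODE annotation of NCBIM37, which named 37205 of 37991 identifiers, and response elements from that genome by position.

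Counts were tested with edgeR 4.0.16 (limma 3.58.1, R 4.3.3) by the quasi-likelihood test with robust fitting, after filterByExpr and TMM scaling, over all genes, with Benjamini-Hochberg adjustment. Genes were called at FDR below 0.1 and absolute log2 fold change above 0.5. Standard errors were the log2 fold change divided by the root of the F statistic. Each mutant was fitted with the controls of its stage. Control stages were fitted over 9 libraries, differences between stages over a mutant and the controls at all stages, and mutants against each other over all genotypes of a stage. Alternatives were RLE size factors, other filters on low counts, DESeq2 1.42.0, FDR below 0.05, all genotypes in 1 fit, summed Apex1 duplicates, the replicate number as a block and leaving out each library. Scripts were tested on simulated data. CPM and figures used Python 3.11.15, pandas 2.3.3 and matplotlib 3.10.9.

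Libraries of one clone carry the same replicate number at every stage by the labels, which pairs them across stages. Their deviations from group means had mean correlations of 0.12, 0.11 and 0.12 in control, Neil1 and Neil2 clones and 0.03 in the Apex1 duplicates. Control and Neil replicates are separate clones, and the Apex1 ones are technical.

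The members and gene lists were chosen with earlier results of these data known, so no list was given a test. Members called in one direction in at least 4 of the 9 mutant comparisons, and Cdkn1a, Mdm2, Ccng1, Bax and Bbc3, were printed in every library, and fold changes with errors for up to 2 members per branch, direction and comparison. For the differences between stages and between mutants these were the leading members of each branch. Of the other lists, Trp53 and up to 3 called genes per list and comparison were named. One further list of pathway genes is not reported here. Depth ran from 21523742 to 48350904 counts per library.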

Additional observations from a re-analysis of the deposited data

Results flagged for a closer look

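Each value here is a difference between groups that was itself tested, either a mutant's log2 fold change at one stage minus that at another or Apex1 minus the mean of the Neil mutants, by edgeR's quasi-likelihood test at the limits given above. The differences are on the log2 scale, and their standard errors and FDR stand in the report. The comparisons share control libraries, so they are not independent.

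For EBs + RA minus EBs, 17 members were called in Neil1, among them Csf1 3.08, Pmaip1 2.05, Cdkn1a 1.28, Polk 1.18, Slc12a4 0.93, Mdm2 0.63 and Sesn2 0.53. In Neil2 9 were called, among them Csf1 2.49, Pmaip1 1.92, Avpi1 0.94, Cdkn1a 0.89 and Ccng1 0.52, and in Apex1 10, among them Csf1 2.59, Avpi1 1.28, Perp 1.13, Cdkn1a 0.95 and Rrm2b −0.91. Pmaip1 led the Neil1 and Neil2 differences beside Csf1, and in the controls it had fallen with RA to 8.37 to 11.4 CPM while no mutant library went below 25.8 CPM.

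For EBs minus mESCs, 4 members were called in Neil1, which were Trp53inp1 0.83, Sesn2 0.67, Mdm2 0.61 and Csf1 −2.16. The 5 called in Neil2 were Gdf15 1.93, Slc12a4 0.70, Sesn2 0.69, Mdm2 0.51 and Csf1 −2.23. Of the 15 called in Apex1, the leading ones were Gdf15 2.19, Gadd45a 1.11, Avpi1 0.93, Fdxr 0.86, Bax 0.61, Btg2 −1.12, Perp −1.32 and Csf1 −3.96.

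For Apex1 minus the mean of Neil1 and Neil2, 22 members were called in mESCs, among them Trp53inp1 1.498, Plk2 1.48, Csf1 1.16, Mdm2 0.98, Zmat3 0.97, Acer2 0.93, Ercc5 0.87, Avpi1 −0.65 and Gdf15 −1.36. In EBs 9 were called, among them Fas 1.37, Pgf 1.22, Ercc5 0.78, Zmat3 0.62, Acer2 0.62 and Gdf15 −0.97, and in EBs + RA 11, among them Fas 0.96, Zmat3 0.85, Abhd4 0.61, Ckap2 0.60, Xpc 0.57, Btg2 −0.58, Rrm2b −0.68 and Csf1 −0.76. Gdf15 was lower and Zmat3 higher in Apex1 in both mESCs and EBs. Which of these differences come from the mutation and which from the single Apex1 clone cannot be told apart.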

How the results depend on the processing

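Most log2 fold changes followed singly were those of called, leading members, so small or uncalled changes of other members are not covered. Among those followed, none changed sign. Medians near 0 did: that of Neil1 against Neil2 in EBs, 0.01, ranged over −0.08 to 0.05 when libraries were left out, and that of Apex1 in EBs minus mESCs, 0.00, over 0.01 to 0.11. Of the log2 fold changes of single genes, 1186 stayed on their side of the limits and 73 lost their call under the alternatives that keep every library, and of those that leave out 1 library 885 stayed, 214 lost and 4 gained it. Of the medians over the members, 14 moved by more than the spread between replicates, all of them when a library was left out.

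In Neil1 mESCs the count of members called was 1 instead of 0 with at least 10 counts in every library, 1 with DESeq2 and 1 with all genotypes in 1 fit, and in Neil2 mESCs it was 1 with DESeq2, 1 with the replicate block and 1 with all genotypes. Neil1 and Neil2 differed in 1 member instead of 0 in EBs + RA with DESeq2. In Apex1 mESCs the count of 13 became 0 with the duplicates summed, where no spread within the Apex1 line is left. An FDR below 0.05 gave 1 instead of 4 for Neil1 and 2 instead of 5 for Neil2 in EBs minus mESCs, 10 instead of 17 for Neil1 and 6 instead of 10 for Apex1 in EBs + RA minus EBs, and 7 instead of 11 for Apex1 against the Neil mutants in EBs + RA. Without a filter on low counts the EBs minus mESCs counts were 1 for Neil1 and 3 for Neil2. The cause of the shifts with the test, filter and fit was not tested.

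Leaving out each library or clone in turn gave 0 to 6, 0 to 3 and 0 to 20 members called in Neil1, Neil2 and Apex1 mESCs, 8 to 11, 4 to 9 and 12 to 21 in EBs and 19 to 23, 19 to 23 and 16 to 28 in EBs + RA. For the controls it gave 10 to 14 from mESCs to EBs and 9 to 14 with RA. The differences between stages ranged over 1 to 3, 0 to 9 and 1 to 18 for EBs minus mESCs and 6 to 22, 3 to 14 and 1 to 17 for EBs + RA minus EBs in the same order of mutants. Neil1 against Neil2 gave 0 to 0, 0 to 1 and 0 to 0 in mESCs, EBs and EBs + RA, the 1 being without Neil2 replicate 2, and Apex1 against the Neil mutants 16 to 24, 3 to 12 and 4 to 13. Among the calls against controls, leaving out some library took away Bax and Ckap2 in Neil1, Bbc3 and Sesn1 in Neil2 and Epha2, Fdxr, Mdm2, Pgf, Pmaip1 and Sesn2 in Apex1 EBs, Fdxr and Pgf in Neil1, 9630033F20Rik, Bbc3, Ccng1 and Rps27l in Neil2 and Bbc3, Fdxr, Pgf, Rrm2b and Sertad1 in Apex1 EBs + RA, and all 11 tried in Apex1 mESCs. Without control replicate 3 Sesn2 in Neil1 moved to 0.81, and without control replicate 2 Ccng1 in Neil2 to 0.34, both for EBs + RA minus EBs. Where 1 Apex1 duplicate is left, it is assumed to vary like the other groups.

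Between genotypes an equal replicate number is only a number: libraries of a stage with the same number had a mean correlation of deviations of −0.02 (−0.38 to 0.47, 45 pairs), and those with different numbers 0.01. The replicate block raised the count in Apex1 mESCs to 20. Calls lost with the block were Abhd4 in Apex1 mESCs, Bbc3 and Sesn1 in Neil2 EBs and Epha2, Mdm2 and Sesn2 in Apex1 EBs. In the comparison of Apex1 with the Neil mutants they were Acer2 and Gdf15 in EBs and Ckap2, Csf1 and Fas in EBs + RA. Apart from these and the losses given in the report for the paired clones, the block took away no call among the members followed one by one through the alternatives. These were the leading members of each branch, so calls of others, such as Aen, Gtse1, Tnfrsf10b and Apaf1, and of Trp73, Cdkn2a and Top2a were not recomputed singly. With 3 libraries against 3, or 3 against 2, calls near the limits depend on the spread shared across genes, and members at few counts, such as Fas and Gdf15, carry wide errors.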
